A study of Malus domestica with 36 samples.

Results

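In the peel of stored 'Granny Smith' apples, 150 of the 57423 genes of the table were singled out as those that stood highest in every low oxygen group relative to every RA group. They were chosen by a score. For each of the 12 groups the mean of log2(FPKM + 1) was taken, FPKM being the fragments of a gene per kilobase of its length, scaled for how deeply the library was read. Only the 16504 genes whose highest group mean reached 10 FPKM were scored. The score is the lowest mean among the 8 low oxygen groups minus the highest mean among the 4 RA groups, and the 150 highest scores were kept after 8 genes had been left out by name. The difference between RA and low oxygen therefore chose the genes, and it is described here without a test.

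All fruit were of the cultivar Granny Smith, and all RNA came from peel. The 36 libraries form 12 groups of 3 biological replicates, crossing 3 storage regimes (RA, ULO and DCA_CF) with 2 times, called T1 and T2, and with or without a further step tagged SL. ULO was storage at 1% oxygen and DCA_CF at an oxygen level below that of ULO. The labels do not expand RA or SL and give no length of storage for T1 and T2. How many fruits were pooled in a library is not stated, so p-values measure only the spread between libraries of the same group. That spread was estimated for each gene over all 12 groups together, not from the groups compared. Superficial scald, the disorder studied, is a browning of the peel that appears after cold storage.

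When oxygen runs short, plant cells cut back respiration, ferment sugars to ethanol and lactate, and build up amino acids such as alanine and gamma-aminobutyrate (GABA). In Arabidopsis, a class of ethylene response factors is degraded in air and becomes stable when oxygen falls, and these factors switch on fermentation genes. In stored apples, low oxygen also slows ripening and ethylene action. Of the 150 genes, 118 could be looked up in RefSeq's apple genes, and 7 carry a name beyond an identifier. The other 143 are known here only by their identifiers, and nothing is said of their function.

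The libraries summed to between 689868 and 790211 FPKM and had 33512 to 37276 genes above 0, while their depth in reads is unknown. The median coefficient of variation of the 150 genes between replicates lay between 3.33% and 5.54% in the low oxygen groups and between 5.73% and 9.77% in the RA groups. The farnesene synthase AFS1, an enzyme of the apple peel, was present in every library, at 247 to 1220 FPKM in RA and at 280 to 1371 FPKM in low oxygen. The other peel and green tissue markers that had been listed (wax synthesis genes, SHINE, chlorophyll binding proteins) carry no name in the table and were not checked. PG1, a polygalacturonase of flesh softening, ranged from 11.9 to 99.2 FPKM in RA and from 8.28 to 329 FPKM in low oxygen. Ribosomal RNA entries were mostly lower in low oxygen, with some overlap. In RA libraries 18rrn was at 278 to 860 FPKM and 26rrn at 81.8 to 191 FPKM. In low oxygen libraries 18rrn was at 44.5 to 368 FPKM and 26rrn at 24.1 to 104 FPKM. Their part in the results was not tested. In bulk peel, fewer cells of a type and less RNA per cell cannot be told apart.

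The 150 genes were low but mostly not silent in RA and several times higher in low oxygen. The median of their group means was 5.44 FPKM in T1_RA, 7.39 in T1_RA_SL, 4.61 in T2_RA and 7.10 in T2_RA_SL. In ULO it was 25.0 at T1, 24.1 at T1 with SL, 23.0 at T2 and 20.7 at T2 with SL. In DCA_CF it was 25.2, 21.1, 25.1 and 22.2 in the same order. Low oxygen medians thus lay close together, and all of them were above the 4 RA medians. Averaged over groups, the members were higher in low oxygen by a median of 1.86 on the log2 scale, with a range from 0.71 to 4.39.

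Between the nearest groups the gap was smaller. The score ran from 1.95, a 3.86-fold difference in FPKM + 1, down to 0.372, a 1.29-fold difference, with a median of 0.68 (1.60-fold), and 33 members scored at least 1. Among all scored genes, 741 (4.49%) had a score above 0. In 146 of the 150 members the lowest of the 24 low oxygen libraries was above the highest of the 12 RA libraries. The same held for 2.16% of the 16504 scored genes, 357 in all, and since the rule used this contrast nothing is read from the count. The 4 exceptions are LOC103417574, LOC103428160, LOC103410576 and LOC103455339.

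**Figure D1:**
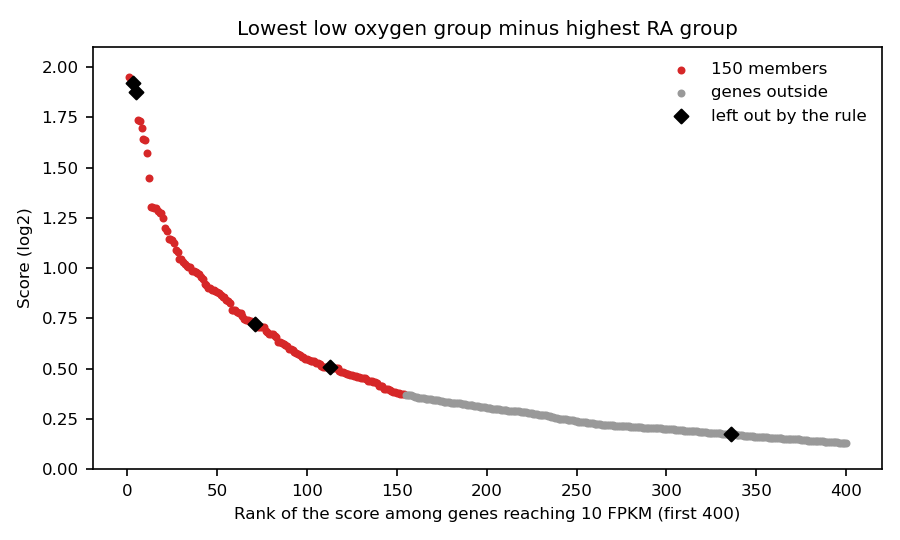
Score (log2, lowest low oxygen group mean minus highest RA group mean, vertical axis) against rank among genes reaching 10 FPKM (horizontal axis), with members in red, genes outside in grey and genes left out by name as black diamonds. The score drops from 1.95 to 0.68 at the median member and flattens towards 0.372, where members and outside genes meet without a break.

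The lower edge of the list is a cut in a continuous series. Just inside lay LOC103455339 at 0.373 and LOC103452627 at 0.372, and just outside lay LOC103446283 at 0.371 and LOC103439862 at 0.370. Of the 8 genes left out by name, 4 would have been among the highest scores: HD7 (LOC103444266) at 1.92, the aquaporin PIP1 at 1.88, the auxin-response repressor IAA5 at 0.72 and the ethylene response factor ERF1 (LOC103452857) at 0.51. The other 4 scored below the edge, with IAA4 at 0.17, LOX6b (LOC103422578) at -0.34, IAA12 at -0.50 and MdGDSL (LOC103421823) at -0.70. Membership also depended on how values were scaled: 130 of the 150 genes were kept with RLE size factors and 126 with upper quartile scaling, and 144 had a score above 0 under either.

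**Figure D2:**
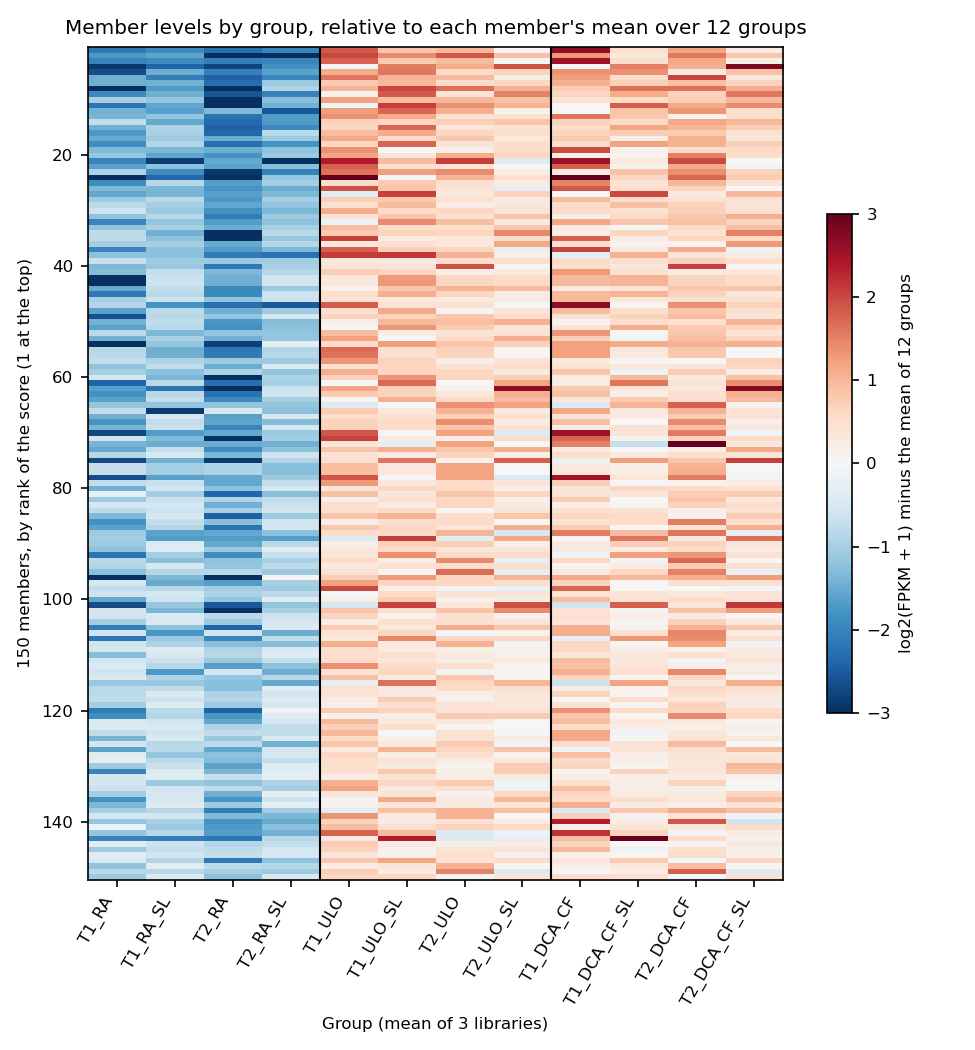
Group means of log2(FPKM + 1) of the 150 members (vertical axis, by rank of the score) in 12 groups (horizontal axis, means of 3 libraries), as the difference from each member's mean over the 12 groups, with colours ending at -3 and 3. The 4 RA columns at the left are blue and the 8 low oxygen columns are mostly red, and the low oxygen columns differ among themselves by a median of 1.18 (log2) per member.

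Levels spanned several orders of magnitude. The highest RA group mean was under 1 FPKM in 7 members and under 10 FPKM in 77. The lowest low oxygen group mean was above 10 FPKM in 93 members and above 100 FPKM in 14. The 3 most abundant members by their highest group were LOC103441403 (3349.7 ± 67.6 FPKM in T1_ULO), LOC103416825 (1750.3 ± 6.38 FPKM in T1_DCA_CF) and LOC103404179 (1158 ± 7.17 FPKM in T1_ULO; mean ± SD, n = 3). The members were far from uniform within low oxygen. The difference between the highest and the lowest of the 8 low oxygen groups had a median of 1.18 on the log2 scale, was above 1 in 89 members, and was larger than the member's own score in 118.

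The highest scores belonged to genes near 0 in RA and to strongly expressed ones alike. LOC103451675, the first in rank, ranged from 0 to 0.373 FPKM (median 0.258) in RA libraries and from 3.92 to 31.3 FPKM (median 8.66) in low oxygen libraries. LOC103441403, the second in rank and the most abundant member, ranged from 65.5 to 285 FPKM (median 169) in RA and from 1058 to 3414 FPKM (median 2165) in low oxygen. LOC103418574, the third in rank, ranged from 0 to 0.273 FPKM (median 0) in RA and from 3.11 to 23.1 FPKM (median 6.71) in low oxygen. In all 3 the RA and low oxygen libraries were far apart, but LOC103441403 was already well expressed in RA. LOC103426379 came next and ranged from 0 to 1.37 FPKM (median 0.144) in RA and from 5.81 to 53.4 FPKM (median 16.6) in low oxygen. LOC103441065 followed and ranged from 2.15 to 8.72 FPKM (median 6.01) in RA and from 26.9 to 75.7 FPKM (median 49.05) in low oxygen. LOC103442424, at rank 6, ranged from 0.775 to 2.93 FPKM (median 1.44) in RA and from 9.73 to 40.3 FPKM (median 18.4) in low oxygen. None of these 6 overlapped between RA and low oxygen, which the choice by score favoured. Of all scored genes, 2.16% had every low oxygen library above every RA library.

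The next 6 members in rank differed widely in their RA levels. LOC103453162 ranged from 6.35 to 16.2 FPKM (median 13.2) in RA and from 50.2 to 80.01 FPKM (median 59.99) in low oxygen, and it was the steadiest of the 12 highest ranked members, with 0.56 on the log2 scale between its highest and lowest low oxygen group. LOC103421548 ranged from 1.3 to 35.8 FPKM (median 12.2) in RA and from 106 to 269 FPKM (median 170.1) in low oxygen. LOC103453327 ranged from 0.232 to 2.36 FPKM (median 0.851) in RA and from 6.21 to 26.5 FPKM (median 13.5) in low oxygen. These 3 differ in how RA itself varied, most in LOC103421548. LOC103451654 ranged from 16.8 to 90.6 FPKM (median 74.8) in RA and from 241 to 422 FPKM (median 332) in low oxygen. LOC103437526 ranged from 0.739 to 8.595 FPKM (median 5.78) in RA and from 21.001 to 105 FPKM (median 58.6) in low oxygen. LOC103436243 ranged from 3.63 to 11.2 FPKM (median 8.72) in RA and from 26.6 to 96.6 FPKM (median 55.5) in low oxygen. All 6 were without overlap as well, and since the score chose them nothing is read from this.

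At the other end of uniformity, LOC103401031 had the smallest spread over the low oxygen groups, 0.29 on the log2 scale, between 47.8 ± 0.585 and 58.6 ± 1.39 FPKM (mean ± SD, n = 3). LOC103416825 had the largest, 4.01. It stood at 1743, 1754 and 1754 FPKM in T1_DCA_CF and at 171, 168 and 169 FPKM in T1_DCA_CF_SL. In ULO at T1 it fell with SL in the same direction, from 982, 977 and 982 to 105, 101 and 118 FPKM. Its libraries without SL at T1 therefore stood far above those of every other low oxygen group.

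**Figure D3:**
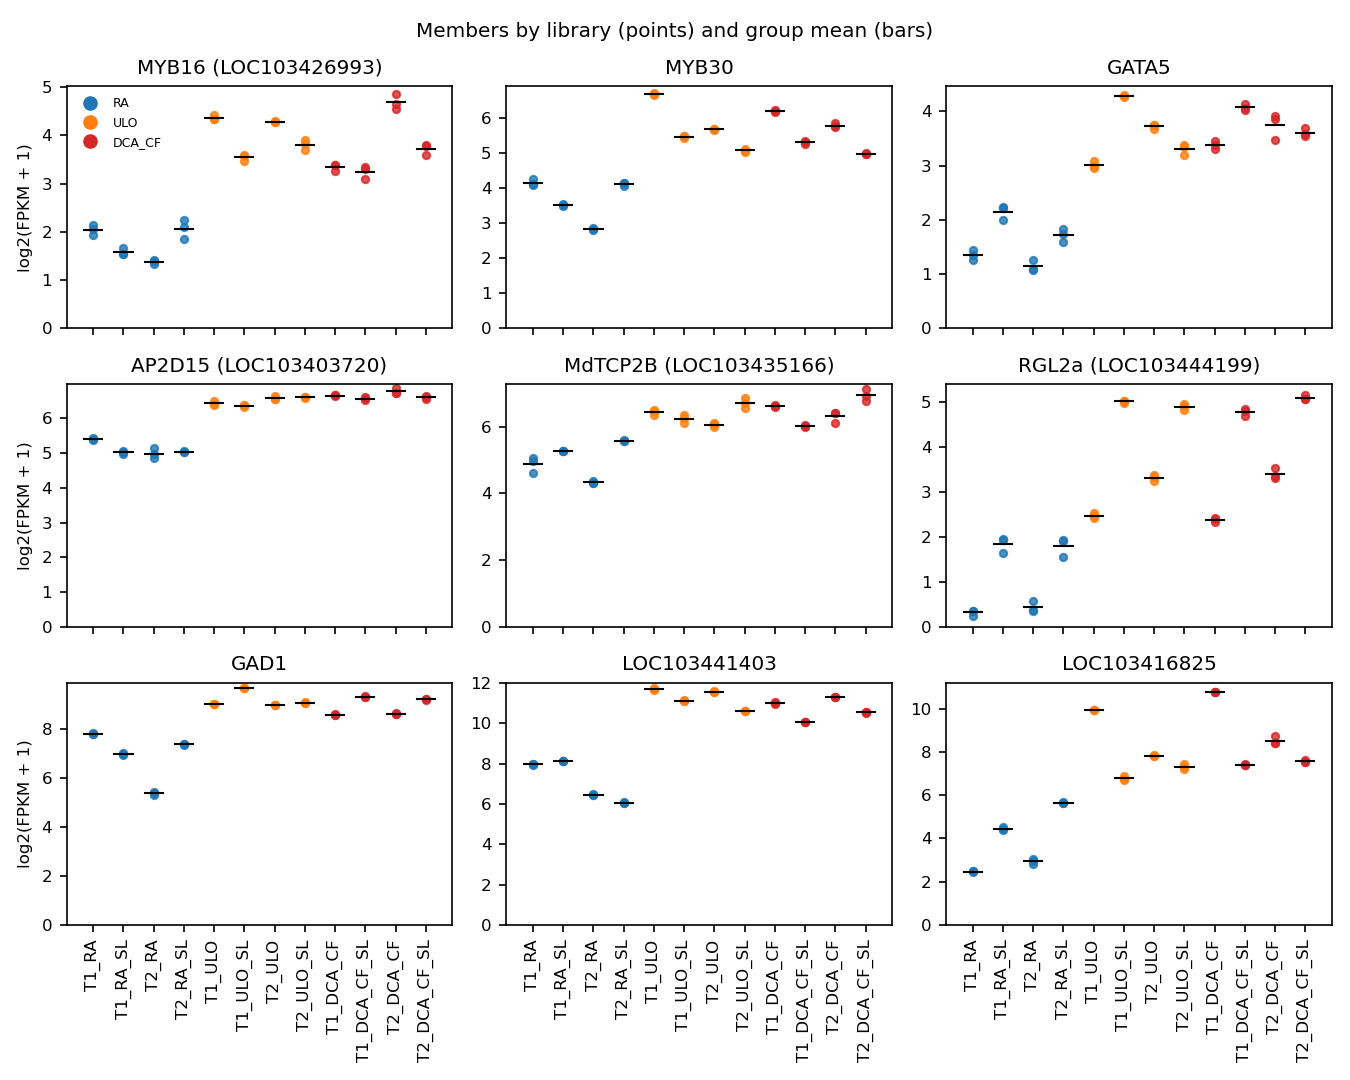
log2(FPKM + 1) (vertical axis) of the 7 named members and of LOC103441403 and LOC103416825 in each library (points) and as the mean of each group (black bars), with RA in blue, ULO in orange and DCA_CF in red along the horizontal axis. GAD1 drops to 40.6 FPKM in T2_RA, RGL2a rises with SL in every regime, and LOC103416825 peaks at T1 without SL in both low oxygen regimes.

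GAD1 is a glutamate decarboxylase, the enzyme that makes GABA from glutamate. It ranged from 38.8 to 233 FPKM (median 146) in RA libraries and from 379 to 826 FPKM (median 535) in low oxygen libraries. In RA it was 221, 223 and 233 FPKM at T1 and 40.9, 42.1 and 38.8 FPKM at T2, a change of -2.44 ± 0.0269 on the log2 scale (limma adjusted p = 3.13e-30, where ± after a log2 change is, here and below, the SE of the fit). With SL at T2 it was 170.1, 163 and 170.2 FPKM, higher than without SL by 2.02 ± 0.0269 (limma adjusted p = 5.44e-29), while at T1 SL went the other way, at -0.83 ± 0.0269 (limma adjusted p = 2.5e-20). In low oxygen GAD1 rose with SL at T1, by 0.65 ± 0.0269 (limma adjusted p = 4.61e-18) in ULO and by 0.74 ± 0.0269 (limma adjusted p = 2.64e-19) in DCA_CF. GAD1 was lower in DCA_CF than in ULO at T1 without SL, at 385, 396 and 379 against 522, 519 and 530.2 FPKM, a difference of -0.44 ± 0.0269 (limma adjusted p = 2.71e-13). Its group mean was also lower in DCA_CF at T1 with SL (645 against 821 FPKM) and at T2 without SL (400 against 508 FPKM). At T2 with SL the order was the opposite, 597 FPKM in DCA_CF against 547 FPKM in ULO. The T2_RA libraries were the lowest of all and the T1_ULO_SL libraries the highest.

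RGL2a (LOC103444199) is a DELLA protein, of the family that represses gibberellin signalling. It ranged from 0.181 to 2.88 FPKM (median 1.22) in RA libraries and from 4.02 to 34.4 FPKM (median 17.5) in low oxygen libraries. Its highest levels came with SL. At T1 it was 4.48, 4.38 and 4.78 FPKM in ULO and 31.7, 30.5 and 31.6 FPKM in ULO_SL, a rise of 2.54 ± 0.0861 (limma adjusted p = 4.26e-20). In DCA_CF it was 4.02, 4.302 and 4.23 FPKM and 27.8, 24.6 and 26.9 FPKM with SL, a rise of 2.40 ± 0.0861 (limma adjusted p = 1.64e-19). At T2 the rises were 1.58 ± 0.0861 (limma adjusted p = 3.52e-15) in ULO and 1.70 ± 0.0861 (limma adjusted p = 6.05e-16) in DCA_CF. RA rose with SL too, by 1.52 ± 0.0861 (limma adjusted p = 7.19e-15) at T1 and 1.37 ± 0.0861 (limma adjusted p = 6.73e-14) at T2. In each of the 6 comparisons the SL libraries were all above the libraries without SL. The group means of RA with SL lay below those of low oxygen without it, which the rule required of every member.

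Among transcription factors, MYB16 (LOC103426993, also MIIMYB) had the highest score of the named members, 1.18. Its Arabidopsis namesake regulates cuticle formation. It ranged from 1.51 to 3.73 FPKM (median 2.39) in RA and from 7.57 to 27.8 FPKM (median 12.9) in low oxygen. At T1 DCA_CF was lower than ULO, 9.45, 9.44 and 8.67 against 20.4, 19.2 and 19.4 FPKM, a difference of -1.02 ± 0.0866 (limma adjusted p = 1.75e-10). At T2 the order was the opposite, 22.4, 24.3 and 27.8 against 18.7, 18.3 and 18.4 FPKM, a difference of 0.41 ± 0.0866 (limma adjusted p = 0.000782). From T1 to T2 it rose in DCA_CF by 1.34 ± 0.0866 (limma adjusted p = 8.52e-14), and in ULO the change was -0.087 ± 0.0866 (limma adjusted p = 0.398). ULO was already high at T1, and DCA_CF reached its highest values at T2.

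MYB30, whose Arabidopsis namesake regulates genes of very-long-chain fatty acid and wax synthesis, scored 0.82. It ranged from 5.997 to 18.1 FPKM (median 13.1) in RA and from 30.4 to 104 FPKM (median 46.8) in low oxygen. At T1 it was 101, 104 and 98.9 FPKM in ULO and 42.1, 43.4 and 44.05 FPKM in ULO_SL, a change of -1.21 ± 0.0364 (limma adjusted p = 2.75e-21). The change with SL in DCA_CF was -0.90 ± 0.0364 (limma adjusted p = 2.6e-18) at T1 and -0.80 ± 0.0364 (limma adjusted p = 5.27e-17) at T2, and in ULO at T2 it was -0.61 ± 0.0364 (limma adjusted p = 3.05e-14). In RA the SL difference was -0.64 ± 0.0364 (limma adjusted p = 8.42e-15) at T1 and 1.28 ± 0.0364 (limma adjusted p = 1.22e-21) at T2. MYB30 was lower with SL in all 4 low oxygen comparisons, whereas in RA its SL difference had opposite signs at the 2 times.

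GATA5, a GATA-type zinc-finger factor, scored 0.86 and ranged from 1.11 to 3.71 FPKM (median 1.87) in RA and from 6.77 to 18.8 FPKM (median 11.4) in low oxygen. At T1 it was 7.46, 6.77 and 6.96 FPKM in ULO and 18.8, 18.3 and 18.6 FPKM in ULO_SL, a rise of 1.28 ± 0.0873 (limma adjusted p = 3.32e-13), and in DCA_CF it rose with SL by 0.69 ± 0.0873 (limma adjusted p = 7.22e-08). The rise was smaller in DCA_CF, with a difference of the responses of -0.59 ± 0.123 (limma adjusted p = 0.000311). At T2 the change with SL was -0.42 ± 0.0873 (limma adjusted p = 0.000131) in ULO and -0.14 ± 0.0873 (limma adjusted p = 0.17) in DCA_CF. GATA5 was not followed under other scalings. For SL in ULO at T2, RLE size factors moved the median change of all genes from -0.21 to -0.034, so the size of this fall is uncertain. T1 with SL thus held its highest libraries in both regimes.

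AP2D15 (LOC103403720), of the AP2/ERF family, was the steadiest named member, with 0.42 on the log2 scale between its highest and lowest low oxygen group. It ranged from 28.1 to 42.1 FPKM (median 32.2) in RA and from 78.96 to 117 FPKM (median 95.8) in low oxygen. MdTCP2B (LOC103435166), of the TCP family of growth regulators, was added to complete the named members after its values were seen. It ranged from 18.8 to 47.3 FPKM (median 34.8) in RA and from 62.9 to 139 FPKM (median 83.7) in low oxygen. At T2 it was 19.02, 18.8 and 19.7 FPKM in RA and 47.3, 46.5 and 46.9 FPKM in RA_SL, a rise of 1.25 ± 0.0936 (limma adjusted p = 3.29e-12). Low oxygen rose with SL at T2 as well, by 0.65 ± 0.0936 (limma adjusted p = 7.95e-07) in ULO and 0.63 ± 0.0936 (limma adjusted p = 1.13e-06) in DCA_CF. In DCA_CF at T1 the change was -0.60 ± 0.0936 (limma adjusted p = 2.36e-06), a fall.

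Of 7 genes of the listed low oxygen response that carry a name in the table, GAD1 alone is a member. GAD2 ranged from 6.22 to 33.9 FPKM in RA and from 3.14 to 28.9 FPKM in low oxygen. GAD3 reached 9.84 FPKM in RA and 0.582 FPKM in low oxygen. The haemoglobin gene GLB1 ranged from 175 to 523 FPKM in RA and from 9.93 to 1278 FPKM in low oxygen. The 3 therefore overlapped between the regimes, as did the alcohol dehydrogenase ADH1-1 (LOC103428551), from 21.9 to 78.2 FPKM in RA and from 0 to 130.4 FPKM in low oxygen. The ACC oxidase ACO1 (LOC103446762), the last enzyme of ethylene synthesis, ranged from 4402 to 12919 FPKM in RA and from 6047 to 19269 FPKM in low oxygen. ACO (LOC103434461) differed widely between replicates, with values from 0 to 203 FPKM in low oxygen. With SL at T1 (limma, adjusted p under 0.05), 0 of the 7 rose and 6 fell in RA, where 26.4% of all genes tested rose and 35.3% fell. In ULO 1 rose and 5 fell, against 27.3% and 37.9%, and in DCA_CF 2 rose and 4 fell, against 37% and 29.8%. With SL at T2, 2 rose and 4 fell in RA (27.3% and 31.6% of all genes), 1 rose and 4 fell in ULO (18.6% and 43.2%), and 1 rose and 4 fell in DCA_CF (16.7% and 45.5%). Nothing particular to these 7 genes is read from the counts.

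Within RA, most of the 150 genes were higher with SL at T2. All 12 group means entered the score, through the highest RA group and the lowest low oxygen group. The rule set no direction within RA or within low oxygen. Counts within them are still not independent of the choice of genes, here and below, and are described only. At T1, 79 members were higher with SL and 45 lower at an adjusted p under 0.05 in limma. Of the 32923 genes tested, 26.4% were higher and 35.3% lower, and of the 16493 tested genes that reach 10 FPKM 35.4% were higher and 39.1% lower. At T2, 117 members (78%) were higher and 13 (8.67%) lower, against 27.3% and 31.6% of all genes tested and 35.6% and 37.4% of those that reach 10 FPKM. The median change of the members at T2 was 0.54 on the log2 scale, and that of all genes was -0.028.

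LOC103421548 showed the largest rise with SL at T1, from 1.85, 1.3 and 1.55 to 18.8, 19.6 and 19.4 FPKM, by 2.99 ± 0.0632 (limma adjusted p = 1.75e-24). LOC103438905 went from 3.94, 4.22 and 3.88 to 30.7, 31.1 and 32.9 FPKM, by 2.70 ± 0.0338 (limma adjusted p = 1.48e-29). In the other direction, LOC103411817 went from 4.58, 3.79 and 2.26 FPKM to 0 in all 3 SL libraries, and since an exact 0 can be a failed estimate no fold is given. In the first 2 genes every SL library was several times above every library without SL. At T2 LOC103429487 rose from 1.37, 1.54 and 1.17 to 30.5, 28.4 and 28.9 FPKM, by 3.69 ± 0.0705 (limma adjusted p = 1.69e-25). LOC103451267 rose from 7.31, 7.28 and 6.904 to 67.6, 69.6 and 69.2 FPKM, by 3.10 ± 0.0481 (limma adjusted p = 1.63e-27). LOC103412523 fell from 8.58, 9.29 and 8.92 to 1.37, 1.66 and 1.84 FPKM, a change of -1.92 ± 0.0652 (limma adjusted p = 6.27e-20). LOC103436243 changed in the same direction, by -1.22 ± 0.0657 (limma adjusted p = 2.34e-15). None of these groups overlapped.

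In RA without SL, members were mostly lower at T2 than at T1. At T2, 21 members were higher than at T1 and 85 (56.7%) lower, against 25.2% and 23.4% of all genes tested and 34.9% and 28.7% of those that reach 10 FPKM. With SL, 41 were higher (27.3%) and 43 lower (28.7%), against 21% and 14.5% of all genes tested. Of those that reach 10 FPKM 28.8% were higher and 19.6% lower, so the share of members higher lay near the background. LOC103452166 fell from 126, 127 and 129.7 to 19.9, 14.9 and 16.5 FPKM, a change of -2.84 ± 0.0565 (limma adjusted p = 1.96e-24), and LOC103429487 changed by -2.71 ± 0.0705 (limma adjusted p = 6.56e-22). The pair LOC103406478 and LOC103438905 rose instead, by 1.89 ± 0.0444 (limma adjusted p = 7.32e-23) and 1.87 ± 0.0338 (limma adjusted p = 2.11e-25). In RA with SL, LOC103441403 fell from 278, 285 and 281 to 67.4, 65.6 and 65.5 FPKM, a change of -2.07 ± 0.0202 (limma adjusted p = 4.78e-31), and LOC103401094 changed by -0.98 ± 0.152 (limma adjusted p = 8.11e-06). LOC103429487 and LOC103451267 rose with SL over time, by 1.55 ± 0.0705 (limma adjusted p = 4.81e-16) and 1.42 ± 0.0481 (limma adjusted p = 7.63e-19). The highest RA group, which entered the score, was T2_RA in 7 members (4.67%), against 26.05% of all genes that reach 10 FPKM. It was T1_RA in 45 (30%, against 29.7%), T1_RA_SL in 49 (32.7%, against 15.5%) and T2_RA_SL in 49 (32.7%, against 28.7%), so the shares of T1_RA and T2_RA_SL lay near the background. Since the rule used the highest RA group, nothing is read from these shares.

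**Figure D4:**
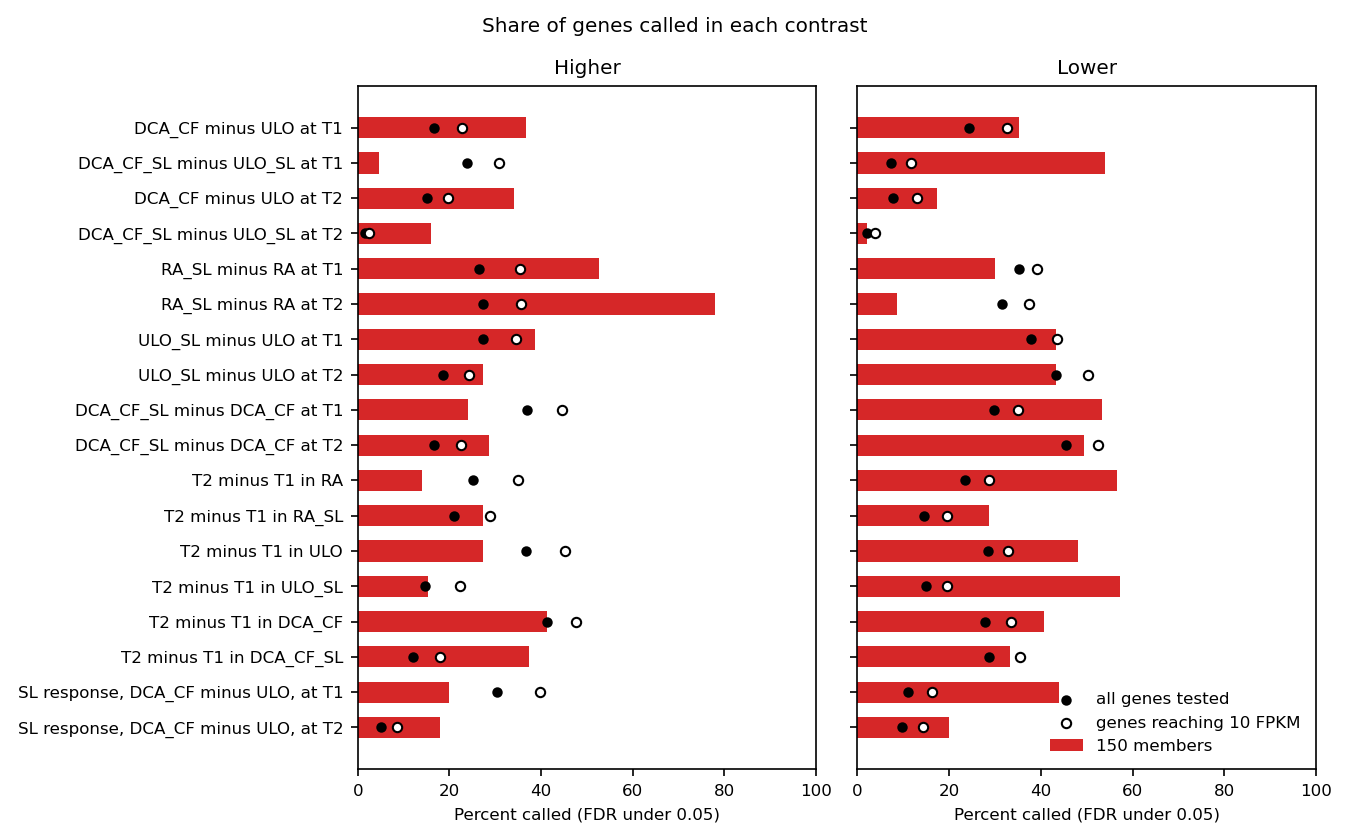
Percent of the 150 members called at an FDR under 0.05 in each contrast (red bars, horizontal axis), higher at the left and lower at the right, with all 32923 genes tested as black points and the 16493 that reach 10 FPKM as open points. The bar for RA with SL at T2 reaches 78% higher against 27.3% of all genes, and the bar for DCA_CF_SL against ULO_SL at T1 reaches 54% lower against 7.4%.

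Between the 2 low oxygen regimes the difference was most one-sided with SL at T1, where most members called were lower in DCA_CF. Without SL at T1, 55 members were higher in DCA_CF and 53 lower, against 16.6% and 24.4% of all genes tested and 22.8% and 32.7% of those that reach 10 FPKM. With SL at T1, 7 members were higher and 81 (54%) lower, against 23.9% and 7.4% of all genes tested and 30.9% and 11.7% of those that reach 10 FPKM. The balance of the members was thus the opposite of that of the table, with a median of -0.21 against 0.083 on the log2 scale. The lowest low oxygen group, which entered the score, was T1_DCA_CF_SL in 36 members and T1_ULO_SL in 4. This balance is therefore not independent of the rule. At T2 without SL, 51 were higher (34%) and 26 lower (17.3%), against 15.1% and 7.84% of all genes and 19.8% and 12.9% of those that reach 10 FPKM. That split depended on scaling, with 39 higher and 33 lower with RLE size factors. At T2 with SL, 24 were higher (16%) and 3 lower (2%), against 1.59% and 2.1% of all genes. Of those that reach 10 FPKM 2.4% were higher and 3.73% lower, so the share of members lower lay near the background. A fit of these 6 libraries alone gave 5 and 1.

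LOC103408494 was the member furthest below ULO at T1, at 14.2, 17.3 and 15.4 FPKM in DCA_CF and 77.1, 93.4 and 84.2 FPKM in ULO, a difference of -2.37 ± 0.148 (limma adjusted p = 3.56e-13). LOC103401996 stood at 17.02, 15.7 and 16.4 and 43.7, 43.8 and 46.5 FPKM, a difference of -1.40 ± 0.0712 (limma adjusted p = 5.01e-15). On the other side, LOC108169533 stood at 12.1, 11.9 and 9.59 FPKM in DCA_CF and 4.03, 3.45 and 4.16 FPKM in ULO, a difference of 1.32 ± 0.161 (limma adjusted p = 1.48e-07). In each of the 3 genes the DCA_CF libraries lay wholly on one side of the ULO libraries. LOC103423394 was also higher in DCA_CF, by 0.98 ± 0.0975 (limma adjusted p = 3.65e-09).

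With SL at T1, LOC103446574 stood at 38.6, 36.6 and 36.7 FPKM in DCA_CF_SL and 81.2, 82.3 and 80.1 FPKM in ULO_SL, a difference of -1.10 ± 0.0469 (limma adjusted p = 3.37e-17). LOC103408494 was again lower, with a difference of -1.09 ± 0.148 (limma adjusted p = 9.39e-07). LOC103422468 was higher, at 70.4, 70.7 and 70.1 against 31.6, 31.1 and 30.8 FPKM, by 1.15 ± 0.095 (limma adjusted p = 7.9e-11). LOC103416825 was higher by 0.64 ± 0.0658 (limma adjusted p = 5.56e-09). The first 2 of these genes were on the common side and the last 2 ran against it, and none of the 4 overlapped between the regimes.

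At T2 without SL, LOC103426213 stood at 10.1, 10.9 and 11.04 FPKM in DCA_CF and 3.24, 3.16 and 2.71 FPKM in ULO, a difference of 1.53 ± 0.0576 (limma adjusted p = 1.49e-17). Its near-identical partner LOC103432309 differed by 1.52 ± 0.0559 (limma adjusted p = 8.41e-18). LOC103404179 was lower, at 599, 605 and 614 against 955, 942 and 973 FPKM, a difference of -0.66 ± 0.0212 (limma adjusted p = 5.23e-19). LOC103408494 was lower as well, with a difference of -0.64 ± 0.148 (limma adjusted p = 0.00169). The pair and these 2 genes lay on opposite sides of ULO. With SL at T2, LOC103426379 stood at 50.2, 50.6 and 53.4 FPKM in DCA_CF_SL and 26.5, 27.1 and 27.4 FPKM in ULO_SL, a difference of 0.90 ± 0.143 (limma adjusted p = 0.000152) that missed the threshold with a pseudocount of 0.1 (adjusted p = 0.423). LOC103433087 was higher by 0.67 ± 0.0484 (limma adjusted p = 2.78e-10). LOC103448174 was lower, with a difference of -0.42 ± 0.055 (limma adjusted p = 8.59e-06). LOC103435422 differed by -0.15 ± 0.0367 (limma adjusted p = 0.0148), and this call was lost in a fit of these libraries alone (limma adjusted p = 0.239), without T2_DCA_CF_SL replicate 2 (0.0747) or replicate 3 (0.0699) and without T2_ULO_SL replicate 2 (0.11). None of these groups overlapped.

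Within low oxygen, members were both higher and lower with SL. In ULO at T1, 58 were higher with SL and 65 lower, against 27.3% and 37.9% of all genes tested and 34.6% and 43.5% of those that reach 10 FPKM, so these shares of the members (38.7% and 43.3%) lay near the background. In DCA_CF at T1, 36 were higher and 80 lower, against 37% and 29.8% of all genes and 44.6% and 35% of those that reach 10 FPKM. In ULO at T2, 41 were higher (27.3%) and 65 lower (43.3%), against 18.6% and 43.2% of all genes and 24.3% and 50.3% of those that reach 10 FPKM. In DCA_CF at T2, 43 were higher (28.7%) and 74 lower (49.3%), against 16.7% and 45.5% of all genes and 22.6% and 52.4% of those that reach 10 FPKM. The shares lower at T2 thus lay near the background in both regimes, as did the share higher in ULO beside genes that reach 10 FPKM. At T2 the balance turned with the scaling. RLE size factors gave 68 higher and 41 lower in ULO and 66 higher and 44 lower in DCA_CF, and upper quartile scaling gave 78 and 38 in ULO and 73 and 44 in DCA_CF. Scaling to a common total gave 28 and 78 in ULO. RLE moved the median change of all genes from -0.21 to -0.034 in ULO and from -0.24 to -0.045 in DCA_CF, so a direction over all members is not given for SL at T2.

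Large changes of single members with SL were well beyond that shift. LOC103437265 rose in ULO at T1 from 28.3, 27.8 and 29.2 to 165, 167 and 169 FPKM, by 2.52 ± 0.0605 (limma adjusted p = 1.63e-23). LOC103422468 rose in DCA_CF at T1 from 10.3, 11.2 and 10.7 to 70.4, 70.7 and 70.1 FPKM, by 2.61 ± 0.095 (limma adjusted p = 2.41e-19). LOC103416825 fell, with a change of -3.17 ± 0.0658 (limma adjusted p = 5.25e-25) in ULO and -3.36 ± 0.0658 (limma adjusted p = 1.69e-25) in DCA_CF. The rise and the fall were each of several-fold size, with no overlap. LOC103400307 fell in ULO at T1 from 50.7, 52.2 and 52.3 to 13.3, 12.8 and 12.6 FPKM, a change of -1.92 ± 0.0434 (limma adjusted p = 3.86e-24). LOC103433087 fell in DCA_CF at T1 from 75.04, 73.8 and 72.2 to 11.5, 11.4 and 11.5 FPKM, a change of -2.58 ± 0.0484 (limma adjusted p = 6.83e-26).

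At T2, LOC103429487 rose with SL in both regimes, from 50.5, 51.1 and 49.5 to 294, 327 and 277 FPKM in ULO, by 2.54 ± 0.0705 (limma adjusted p = 8.27e-22), and by 2.40 ± 0.0705 (limma adjusted p = 2.58e-21) in DCA_CF. LOC103403002 rose in ULO from 11.8, 11.9 and 12.7 to 40.96, 39.2 and 41.2 FPKM, by 1.66 ± 0.0709 (limma adjusted p = 1.57e-17). LOC103426379 rose in DCA_CF from 15.1, 14.4 and 14.4 to 50.2, 50.6 and 53.4 FPKM, by 1.74 ± 0.143 (limma adjusted p = 2.04e-11). All SL libraries of these genes were above all libraries without SL. LOC103412523 fell in ULO from 116, 119.7 and 123 to 22.5, 20.1 and 20.2 FPKM, a change of -2.46 ± 0.0652 (limma adjusted p = 2.96e-22). LOC103450693 fell in ULO from 883, 882 and 869 to 222, 231 and 225 FPKM, a change of -1.95 ± 0.0267 (limma adjusted p = 9.37e-29). LOC103455339 fell in DCA_CF, with a change of -2.17 ± 0.142 (limma adjusted p = 1.62e-13). Levels with SL were below those without in each of these 3 genes. LOC103410576, at 14.97, 15.2 and 18.1 FPKM without SL and 0, 3.73 and 5.17 FPKM with it in DCA_CF, differed by -2.47 ± 1 (limma adjusted p = 0.0348). That call was lost with RLE size factors (limma adjusted p = 0.0599), upper quartile scaling (0.0624) and a pseudocount of 0.1 (0.12). It was also lost without T2_DCA_CF replicate 1 (0.0621), replicate 2 (0.0628) or replicate 3 (0.0755) and without T2_DCA_CF_SL replicate 1 (0.2).

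The response to SL differed between the regimes in many members. At T1 the difference of the responses, DCA_CF minus ULO, was above 0 in 30 members and below 0 in 66 (44%), against 30.4% and 11.1% of all genes tested and 39.7% and 16.3% of those that reach 10 FPKM. RLE size factors gave 17 and 86. At T2 it was above 0 in 27 and below 0 in 30, against 5.14% and 9.77% of all genes and 8.53% and 14.2% of those that reach 10 FPKM.

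**Figure D5:**
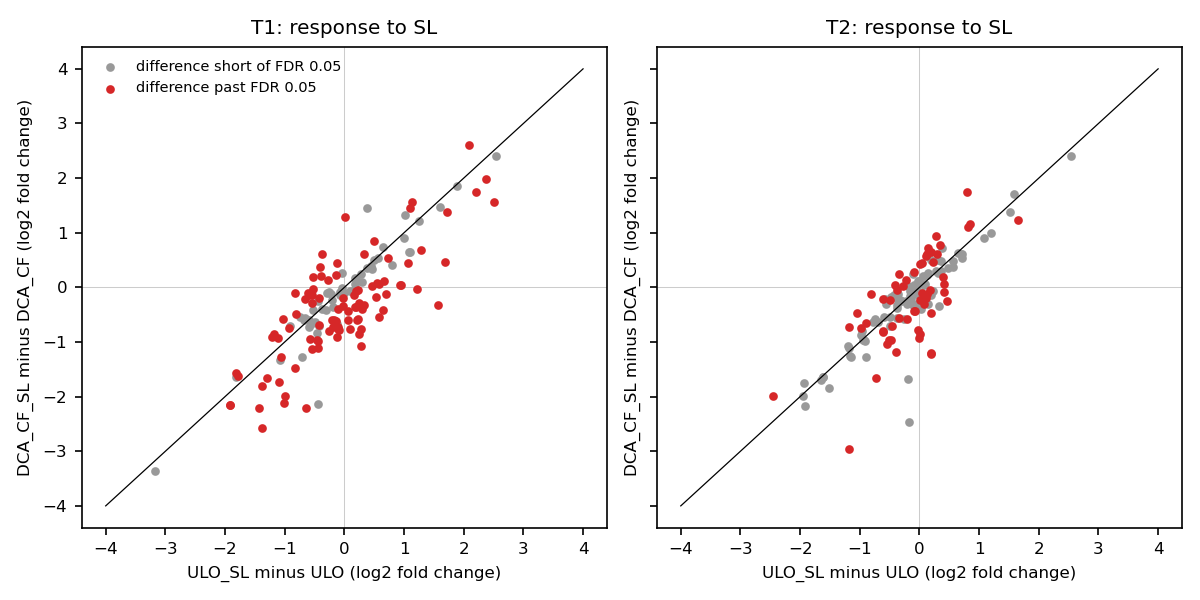
Response to SL of the 150 members in DCA_CF (vertical axis, log2 fold change) against that in ULO (horizontal axis) at T1 and T2, with the line of equal response in black and members whose responses differ at an FDR under 0.05 in red. At T1 96 members are red, 66 of them below the line, and at T2 57 are red, 30 of them below the line.

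LOC108169533 gave the largest negative difference at T1. It rose with SL in ULO, from 4.03, 3.45 and 4.16 to 13.9, 12.4 and 13.98 FPKM, whereas in DCA_CF it was 12.1, 11.9 and 9.59 FPKM without and 8.36, 8.46 and 9.17 FPKM with SL, and the difference was -1.89 ± 0.227 (limma adjusted p = 9.62e-08). LOC103403852 stood at 34.1, 34.3 and 34.9 FPKM in DCA_CF and 15.96, 17.01 and 14.5 FPKM in DCA_CF_SL, and its difference was -1.35 ± 0.101 (limma adjusted p = 9.78e-12). LOC103408494 responded the other way, from 14.2, 17.3 and 15.4 to 36.8, 36.4 and 46.5 FPKM in DCA_CF, with a difference of 1.28 ± 0.209 (limma adjusted p = 1.29e-05). In ULO the same gene changed by 0.011 ± 0.148 (limma adjusted p = 0.969) with SL. For LOC103401996 the difference was 0.98 ± 0.101 (limma adjusted p = 5.57e-09).

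At T2, among members past the threshold with a mean log2 level of at least 2, the furthest below 0 were LOC103426213 and LOC103432309, at -1.41 ± 0.0815 (limma adjusted p = 4.51e-13) and -1.39 ± 0.079 (limma adjusted p = 2.98e-13). LOC103426213 stood at 3.897, 4.203 and 3.91 FPKM in DCA_CF_SL and 3.799, 3.52 and 3.46 FPKM in ULO_SL, so the regimes lay close with SL and apart without it. LOC103426379 differed by 0.95 ± 0.202 (limma adjusted p = 0.00129), a call lost with a pseudocount of 0.1 (adjusted p = 0.434). LOC103408494 differed by 0.69 ± 0.209 (limma adjusted p = 0.0238), and that call was lost in 6 fits that each left out 1 library. The limma adjusted p was 0.0645 without T2_DCA_CF replicate 1, 0.0699 without T2_DCA_CF_SL replicate 2, 0.0507 and 0.0735 without T2_ULO replicates 1 and 3, and 0.0538 and 0.06 without T2_ULO_SL replicates 1 and 2.

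Members also changed from T1 to T2 in low oxygen, and in ULO with SL most were lower at T2. There 23 were higher at T2 and 86 (57.3%) lower, against 14.7% and 15% of all genes tested and 22.3% and 19.6% of those that reach 10 FPKM. In ULO without SL, 41 were higher (27.3%) and 72 lower (48%), against 36.7% and 28.4% of all genes. Of those that reach 10 FPKM 45.2% were higher and 32.9% lower. RLE size factors gave 29 and 87. In DCA_CF, 62 were higher (41.3%) and 61 lower (40.7%), against 41.2% and 27.9% of all genes. Of those that reach 10 FPKM 47.6% were higher and 33.5% lower, so the share of members higher lay near the background. RLE size factors gave 37 and 73. In DCA_CF with SL, 56 were higher (37.3%) and 50 lower (33.3%), against 12% and 28.7% of all genes. Of those that reach 10 FPKM 17.9% were higher and 35.4% lower, so the share of members lower lay near the background. RLE size factors gave 65 and 36, and upper quartile scaling 74 and 26.

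LOC103422468 fell over time with SL in both regimes, from 70.4, 70.7 and 70.1 to 6.27, 5.59 and 5.52 FPKM in DCA_CF, a change of -3.40 ± 0.095 (limma adjusted p = 1.48e-21), and in ULO by -2.61 ± 0.095 (limma adjusted p = 2.97e-18). LOC103429487 rose with SL, from 75.1, 73.4 and 73.95 to 294, 327 and 277 FPKM in ULO, by 1.99 ± 0.0705 (limma adjusted p = 1.51e-18), and by 2.35 ± 0.0705 (limma adjusted p = 7.11e-21) in DCA_CF. Both genes had no overlap between the times. LOC103448174 rose in ULO with SL by 1.03 ± 0.055 (limma adjusted p = 1.43e-14), and LOC103408494 fell there, with a change of -1.92 ± 0.148 (limma adjusted p = 3.11e-11). In DCA_CF with SL LOC103426379 rose by 1.30 ± 0.143 (limma adjusted p = 1.42e-08) and LOC103423394 fell, with a change of -1.16 ± 0.0975 (limma adjusted p = 7.95e-11).

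Without SL, LOC103450693 rose in ULO from 304, 312 and 307 to 883, 882 and 869 FPKM, by 1.51 ± 0.0267 (limma adjusted p = 4.08e-26). LOC103437526 rose in ULO by 1.502 ± 0.0699 (limma adjusted p = 7.99e-17). LOC103437916 fell in ULO from 35.3, 37.5 and 36.2 to 6.29, 7.96 and 7.097 FPKM, a change of -2.21 ± 0.0818 (limma adjusted p = 4.89e-19), and in DCA_CF the change was -2.24 ± 0.0818 (limma adjusted p = 2.39e-19). T1 and T2 libraries of these genes stood apart. LOC103416825 fell, with a change of -2.11 ± 0.0658 (limma adjusted p = 9.58e-21) in ULO and -2.26 ± 0.0658 (limma adjusted p = 1.34e-21) in DCA_CF. In DCA_CF LOC103455339 rose from 6.15, 6.52 and 6.395 to 22.6, 24.9 and 25.3 FPKM, by 1.78 ± 0.142 (limma adjusted p = 8e-12), and LOC103420268 rose by 1.67 ± 0.118 (limma adjusted p = 6.09e-13).

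Which low oxygen group was highest varied over the members. T1_ULO_SL was the highest in 37 members (24.7%), and among all genes that reach 10 FPKM it was the highest low oxygen group in 6.25%. T1_ULO was the highest in 31 (20.7%, against 13.4% of those genes), T1_DCA_CF in 30 (20%, against 20.3%), T2_DCA_CF in 28 (18.7%, against 20.4%) and T2_DCA_CF_SL in 12 (8%, against 6.09%). T2_ULO was the highest in 7 (4.67%, against 16.6%), T2_ULO_SL in 3 (2%, against 7.59%) and T1_DCA_CF_SL in 2 (1.33%, against 9.40%). The shares of T1_DCA_CF, T2_DCA_CF and T2_DCA_CF_SL lay near the background. The lowest low oxygen group, which entered the score, was T1_DCA_CF_SL in 36 members (24%) and in 4.17% of all genes that reach 10 FPKM, and T2_ULO_SL in 34 (22.7%, against 12.7%). The rule used the highest group through its minimum of 10 FPKM and the lowest group through the score. Nothing is therefore read from the counts of either.

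Some members may share reads. The libraries did not record strand, so reads of a gene and its antisense partner cannot be told apart. In 3 pairs of members the log2 values differed by less than 0.2 in every library: LOC103426213 with LOC103432309, LOC103406478 with LOC103438905 and LOC103409307 with LOC103436232. The first pair had equal values in 8 of the 36 libraries, and the largest gap between its values was 0.056 on the log2 scale. The members of a pair are uncertain as separate genes and are not independent. In the gene order of the RefSeq table, LOC103452626 and LOC103452627 are next to each other, and LOC103427226 with LOC103423394 and LOC103429442 with LOC103422018 have 2 genes between them.

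In 3 members some library was listed at 0 beside a replicate of at least 3 FPKM, which can be a failed estimate. LOC103417574 was at 0 in 24 libraries in all, LOC103410576 in 9 and LOC103411817 in 4. LOC103417574 stood at 3.65, 0 and 0 FPKM in T1_DCA_CF and at 0, 0 and 4.101 FPKM in T1_ULO. In LOC103410576 the values were 0, 0 and 7.46 FPKM in T1_RA and 4.43, 4.36 and 4.602 FPKM in T1_ULO_SL. These 2 are the members with a low oxygen library at 0, and their group means rest on such values.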

How the data were processed

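RNA-seq of peel was deposited as 1 table of 57423 genes by 36 libraries. Libraries were non-directional, per the labels' protocols. HISAT2, StringTie and DESeq2 appear without versions in the submitters' processing notes. The genome build is not given in the sources used here. The sheet is named for counts, but the deposited values were taken as FPKM, since they hold fractions and their low values step by gene and library. Columns headed DCA were matched to the DCA_CF titles by time, SL tag and letter. No count model was run.

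The members and lists were chosen with earlier results of these data known. Values were used as log2(FPKM + 1), which understates changes of low genes. The test covered the 32923 genes that reach 1 FPKM in 3 or more libraries, with all 150 members among them. limma 3.58.1 in R 4.3.3 fitted 1 mean per group over all 36 libraries, with eBayes and a trend, and tested 18 contrasts (the differences of SL, time and low oxygen regime within the design, and the difference of SL responses between ULO and DCA_CF). P-values were adjusted by the Benjamini-Hochberg method over every gene tested, with a threshold of 0.05. The procedure was tested on simulated data.

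Named genes are the 12 highest scores, up to 4 members per role class by symbol, up to 2 members per contrast and direction with the largest change (adjusted p under 0.05, mean log2 level of at least 2, no overlap except for the differences of responses), the genes at the threshold, listed low oxygen genes, and the members of highest level and widest range. LOC103401031, of the smallest range, LOC103417574, 3 pairs with close values, neighbouring members and the 4 members with overlap between RA and low oxygen were chosen after values were seen. A RefSeq gene table of another build (GDT2T_hap1) gave synonyms and gene order only. Sequences, promoters and motifs were not analysed here. Alternatives were other minimum levels, a pseudocount of 0.1, RLE, upper quartile and total scaling, no filter, a replicate block, the compared libraries alone, each library left out, and, added after the data were seen, members listed at 0 beside a replicate of 3 FPKM or more left out. FPKM gives no read counts, so no counting interval is given.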

Additional observations from a re-analysis of the deposited data

Results flagged for a closer look

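The responses to SL of ULO and DCA_CF differed by the test of the difference itself (limma, adjusted p under 0.05) in the members named for it. Values are the SL response of DCA_CF minus that of ULO, in log2 fold change. The sign alone does not tell which regime changed more. At T1 LOC103408494 differed by 1.28 and LOC103401996 by 0.98, both positive differences. LOC108169533 differed by -1.89 and LOC103403852 by -1.35, both negative differences. LOC108169533 rose with SL in ULO, whereas LOC103403852 fell with SL in DCA_CF. At T2 LOC103426379 differed by 0.95 and LOC103408494 by 0.69. LOC103426213 differed by -1.41 and its near-identical partner LOC103432309 by -1.39, which may count the same reads. LOC103408494 was the one gene named for a positive difference at both times. At T2 this went with a fall in ULO, from a mean of 39.3 FPKM without SL to 21.9 FPKM with it. The T2 call was lost in some fits that left out a single library.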

How the results depend on the processing

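The alternatives were read for 72 changes (36 genes), those of the members taken for the largest change per contrast and direction. None of these changed sign. They include RGL2a for SL at T1 in ULO and DCA_CF. The other changes of RGL2a, and those of GAD1, MYB16, MYB30, GATA5, AP2D15 and MdTCP2B, were not followed under the alternatives. Over all members the balance of SL calls at T2 did turn with the scaling: RLE size factors moved the median change of the members from -0.095 to 0.17 in ULO and from -0.18 to 0.10 in DCA_CF. Of 36 counts of members called, some moved by more than 1.5 times under 3 alternatives. RLE size factors gave 68 higher and 41 lower with SL in ULO at T2, 66 and 44 with SL in DCA_CF at T2, 37 higher over time in DCA_CF, and 17 above 0 for the difference of SL responses at T1. Upper quartile scaling gave 78 and 38, 73 and 44, 37 and 14 for the same counts, 123 lower in DCA_CF_SL than in ULO_SL at T1, and 26 lower over time in DCA_CF with SL. The compared libraries alone gave 5 higher and 1 lower in DCA_CF_SL than in ULO_SL at T2. For these shifts the cause was not tested. Leaving out 1 library gave 1 to 4 for the count lower in DCA_CF_SL than in ULO_SL at T2 (1 without T2_DCA_CF_SL replicate 2 or T2_ULO_SL replicate 2). No other count moved by as much.

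Libraries were not treated as paired by replicate letter. Deviations from group means correlated at 0.0029 for the same letter and -0.0015 for others. Deviations within a group sum to 0, which ties these values together, so they cannot exclude a pairing. In 17 of 36 libraries the nearest one of another group had the same letter, and the number due to chance was not computed. With the letter as a block the count higher in DCA_CF than in ULO at T1 was 54 in place of 55, and no count moved by over 1.5 times.

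Of the 150 members, 118 were kept with a minimum of 5 FPKM, 114 with 20 FPKM, 146 with a pseudocount of 0.1, 125 with a common total, 131 when single libraries replaced group means, and 145 to 150 without 1 library. Depth in reads is unknown, which limits what can be said of members under 1 FPKM in RA.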
